A study of Mus musculus with 4 samples.

Results

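The 9 genes described here encode the classic autoantigens of the endocrine pancreas and the thyroid: *Ins1*, *Ins2*, *Iapp*, *Gad1*, *Gad2*, *Ptprn*, *Slc30a8*, *G6pc2* and *Tg*. They were taken by symbol from a table of 23337 genes, because autoantibodies or T cells against their proteins, or close relatives of these, accompany type 1 diabetes or autoimmune thyroiditis, and all 9 were found there. Medullary thymic epithelial cells (mTECs), which present antigens of peripheral organs to developing T cells, were sequenced in 2 WT and 2 *Sirt6* cKO libraries. The cells were sorted as CD45-EpCAM+UEA-1+Ly51- from the thymus of 4-week-old C57BL/6 mice. The *Sirt6* cKO mice carry *Sirt6* loxp/loxp and *Foxn1*-Cre, in which the *Foxn1* promoter drives Cre in thymic epithelial cells, medullary and cortical alike, and their genotype is labelled *Sirt6*-/-. The WT controls lacked *Foxn1*-Cre. The study's methods describe the 2 samples of a group as independent, but the number of animals behind a library is not given in the sources used here, and p-values measure only the spread between these libraries.

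mTECs transcribe many genes that are otherwise restricted to single tissues. Each such gene is switched on in a small share of the cells at a time, and the transcriptional regulator Aire promotes many of them. Developing T cells that recognize these antigens strongly are deleted or become regulatory T cells. Insulin is the best known case, since its level in the human thymus varies with an inherited risk of type 1 diabetes. In mice *Ins2* is the insulin gene known to be expressed in the thymus, whereas *Ins1* is largely restricted to beta cells.

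The 4 libraries held between 61102704 and 65907745 counts, and between 18608 and 19475 genes had a count. Levels are given as counts, as CPM, the counts relative to the TMM-scaled library size, or, where different genes are compared, as TPM, which are also scaled by transcript length. Libraries are named WT 1, WT 2, cKO 1 and cKO 2. *Sirt6* itself had 622 and 755 counts in WT against 882 and 835 under the label *Sirt6* cKO, with a log2 fold change of 0.37 (SE 0.32, edgeR adjusted p = 0.80). The *Sirt6* count over the whole gene was thus not lower under that label. Gene counts do not show whether the floxed exons were missing from the transcripts, and each direction given here refers to the labels. The study itself reported *Sirt6* as inactivated, from a western blot of cultured thymic epithelial cells and quantitative PCR on sorted medullary and cortical cells. The epithelial marker *Epcam* was at 798 to 1200.5 TPM and the mature mTEC genes *Aire* and *Cd80* at 395.0 to 754 and 87.8 to 185.5 TPM over the 4 libraries. Summed TPM was 5712.5 to 7949.2 for 5 epithelial markers, and 46833.1 to 53695.9 for 8 mature mTEC markers, most of the latter from *H2-Aa*, *H2-Ab1* and *Cd74*, which dendritic cells and B cells also express.

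Mice have a pair of insulin genes, which encode the same hormone with small differences. The start of their coding sequences, from base 1 to base 150, is shown because a read can be assigned to *Ins1* or *Ins2* only where they differ. It was read from the GENCODE M21 annotation of GRCm38, and capitals mark the 14 bases of this stretch that differ.
*Ins1* coding bases: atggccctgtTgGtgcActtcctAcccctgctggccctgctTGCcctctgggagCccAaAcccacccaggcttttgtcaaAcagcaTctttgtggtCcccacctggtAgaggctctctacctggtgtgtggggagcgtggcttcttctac
*Ins2* coding bases: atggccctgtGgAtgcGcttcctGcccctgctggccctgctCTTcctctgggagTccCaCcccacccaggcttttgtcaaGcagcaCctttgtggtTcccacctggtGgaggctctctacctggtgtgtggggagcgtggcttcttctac
Over the whole coding sequence, 327 bases in *Ins1* and 333 in *Ins2*, 302 aligned positions were the same and 25 differed, an identity of 92.4%. *Ins2* held 6 further bases, and the longest identical run was 56 bases. Of the 50-base words in their transcripts, 0.69% of those of *Ins1* and 0.81% of those of *Ins2* also occurred in the other gene.

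Promoter windows of 300 bases, most of each lying before a start of transcription, were available from RefSeq (GRCm38.p6) for 6 of the 9 genes. Those of *Ins1*, *Iapp*, *Gad1* and *Ptprn* are shown, since the first was the insulin gene with almost no counts and the other three were among the most highly counted members. Capitals mark TATAAA or TAAT on either strand, which can overlap. TAAT is the core recognized by homeodomain factors such as those of beta cells. The windows are chr19:52264047-52264346 (+), chr6:142298175-142298474 (+), chr2:70561879-70562178 (+) and chr1:75264159-75264458 (-) in that order. Those of *Gad1* and *Ptprn* lie within the gene positions given below, so they do not precede the outermost annotated start.
*Ins1* promoter: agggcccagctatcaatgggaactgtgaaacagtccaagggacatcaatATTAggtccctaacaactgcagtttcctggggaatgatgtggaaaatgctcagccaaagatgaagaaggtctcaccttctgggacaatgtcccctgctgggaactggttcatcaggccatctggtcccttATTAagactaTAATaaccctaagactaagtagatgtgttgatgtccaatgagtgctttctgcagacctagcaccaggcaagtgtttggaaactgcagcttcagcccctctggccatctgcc
*Iapp* promoter: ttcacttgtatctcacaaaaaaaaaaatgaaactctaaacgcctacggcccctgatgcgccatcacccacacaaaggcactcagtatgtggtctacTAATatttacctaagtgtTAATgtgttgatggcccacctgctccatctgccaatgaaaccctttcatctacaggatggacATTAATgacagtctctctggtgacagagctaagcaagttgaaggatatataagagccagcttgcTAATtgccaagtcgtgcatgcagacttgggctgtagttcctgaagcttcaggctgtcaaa
*Gad1* promoter: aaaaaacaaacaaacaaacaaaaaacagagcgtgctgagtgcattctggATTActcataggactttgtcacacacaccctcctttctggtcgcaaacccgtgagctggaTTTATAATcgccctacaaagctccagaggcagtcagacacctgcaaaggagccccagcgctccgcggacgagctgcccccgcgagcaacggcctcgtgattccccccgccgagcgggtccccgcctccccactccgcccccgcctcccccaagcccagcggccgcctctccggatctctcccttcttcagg
*Ptprn* promoter: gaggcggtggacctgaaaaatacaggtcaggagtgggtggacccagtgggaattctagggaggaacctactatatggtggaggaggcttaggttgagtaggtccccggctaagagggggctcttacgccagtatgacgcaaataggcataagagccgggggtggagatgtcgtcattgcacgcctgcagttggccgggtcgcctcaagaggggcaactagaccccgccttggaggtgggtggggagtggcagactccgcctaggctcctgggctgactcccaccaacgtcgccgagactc
The *Iapp* window held 5 TAAT, and 6.9% of 32851 promoters of the same length held 5 or more. The *Ins1* window held 3 TAAT and no CG pair, and 5.4% of promoters lacked a CG pair. *Gad1* had 2 TAAT, 1 TATAAA and 21 CG pairs, and the *Ptprn* window shown had 14 CG pairs and none of either motif. At least 14 CG pairs were present in 36.3% of promoters, TAAT in 58.0% and TATAAA in 13.6%. The E-box CANNTG, searched in the same way, occurred 4 times at *Ins1*, 3 times at *Iapp* and once each at *Gad1* and this *Ptprn* window, and 72.3% of promoters held it. These matches describe the letters of the windows and say nothing of factor binding.

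The antigens covered a wide range of levels. By mean TPM in WT (± SD, n = 2) the order was *Iapp* (49.5 ± 15.9), *Ins2* (18.7 ± 9.98), *Ptprn* (8.50 ± 4.16), *Gad1* (8.16 ± 0.761), *G6pc2* (1.64 ± 0.0813), *Tg* (0.801 ± 1.09), *Slc30a8* (0.330 ± 0.467) and *Gad2* (0.153 ± 0.0382), with *Ins1* at 0. *Iapp* lay above *Ins2* beyond their spread, and so did *Gad1* above *G6pc2* and *Gad2* above *Ins1*. The other neighbours in this order did not differ beyond their spread. Under the *Sirt6* cKO label the order was *Iapp* (27.4 ± 9.09), *Ins2* (10.6 ± 1.99), *Gad1* (8.93 ± 6.03), *Tg* (6.88 ± 1.14), *Ptprn* (3.97 ± 2.06), *G6pc2* (0.948 ± 0.416), *Ins1* (0.252 ± 0.357), *Gad2* (0.0461 ± 0.0019) and *Slc30a8* (0.0359 ± 0.0507). There *Iapp* exceeded *Ins2*, and *Ptprn* exceeded *G6pc2*, by more than their spread, and the other neighbours did not. The median gene with a TPM above 0 was at 8.97 to 10.7 TPM, so *Iapp* was above the median gene in each library and *G6pc2*, *Gad2*, *Slc30a8* and *Tg* below it.

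Of the 9 genes, 7 passed the filter on low counts and were tested, and *Ins1* and *Slc30a8* did not. None of the 7 passed the adjusted p in edgeR (0.00539% of all 18547 genes tested did). At the unadjusted p of 0.05, none was lower and none higher, against 3.32% and 5.27% of all genes. DESeq2 also called none, at the adjusted p (1.88% of its genes) or the unadjusted p (10.2%). The groups did not overlap for 5 of the 7: *Iapp*, *Ptprn*, *G6pc2* and *Gad2* were lower in both *Sirt6* cKO libraries than in either WT library (20.3% of all genes tested), and *Tg* was higher (21.6%). The median log2 fold change of the 7 was -0.77, and that of all genes -0.005. In bulk libraries, fewer cells of a type and less RNA per cell cannot be told apart. An exact two-sided permutation test of 2 libraries against 2 cannot go below p = 0.333.

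**Figure D1:**
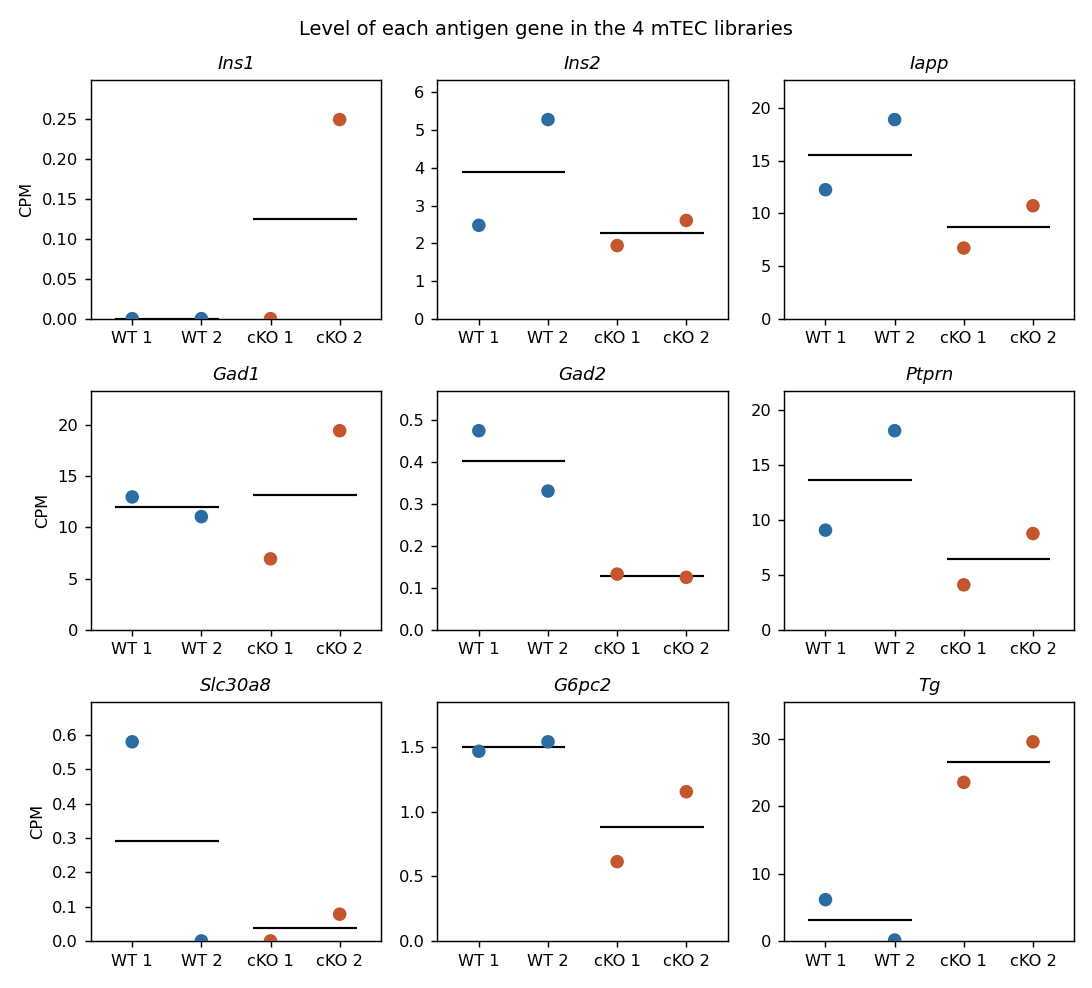
CPM of each antigen gene (vertical axes, linear, each from 0 with its own scale) in the 4 libraries, with a line at the mean of each group of 2. *Iapp*, *Ptprn*, *G6pc2* and *Gad2* are lower in both *Sirt6* cKO libraries than in WT, *Tg* is higher, and *Ins1* and *Slc30a8* are at 0 in 3 and 2 libraries.

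Insulin transcripts came almost wholly from *Ins2* (chr7:142678656-142743381, minus strand). *Ins2*, which encodes preproinsulin, had 162 and 336 counts in WT against 117 and 167 in *Sirt6* cKO. In CPM these were 2.48 and 5.28 against 1.94 and 2.60. WT 2 was the highest library and the groups overlapped, because cKO 2 exceeded WT 1. The log2 fold change was -0.77 (SE 0.68, 95% interval -2.47 to 0.93, edgeR adjusted p = 0.807). Without WT 2 it was -0.12. *Ins2* is also among the tissue-restricted genes that the study displayed as lower from these same libraries, so its direction here is not independent evidence.

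*Ins1* (chr19:52264297-52265476, plus strand) had no count in WT 1, WT 2 or cKO 1. A count of 0 allows up to 3 counts, or 0.0458 to 0.0497 CPM at these depths, for counting error only. By the exact Poisson 95% limits used next, it would allow up to 3.69 counts. cKO 2 held 16 counts (exact Poisson 95% limits 9.15 to 26.0), or 0.249 CPM. *Ins1* was therefore detected in 1 library of 4, and no fold change is given. The count and the TPM of that library together imply a transcript of 1086 bases, beside 1062 annotated for *Ins1*, whereas *Ins2* gave 458 to 478 bases in the 4 libraries. Such a length reflects the one used in quantification, so it does not show from which gene the 16 counts came.

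*Iapp* encodes islet amyloid polypeptide, which beta cells store and secrete with insulin (chr6:142298423-142303961, plus strand). It had 802 and 1204 counts in WT against 405 and 688 in *Sirt6* cKO, or 12.3 and 18.9 CPM against 6.71 and 10.7. Both *Sirt6* cKO libraries lay below both WT libraries, with cKO 2 close under WT 1. The log2 fold change was -0.84 (SE 0.41, 95% interval -1.88 to 0.20, edgeR adjusted p = 0.642). It ranged from -1.23 without cKO 2 to -0.49 without WT 2. On log2(TPM + 1), limma called it at the unadjusted p of 0.05 (adjusted p = 0.507), in a fit that called 4.71% of genes lower.

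*Iapp* exceeded *Ins2* in each library by a similar ratio of TPM, 3.29 and 2.36 in WT against 2.29 and 2.83 in *Sirt6* cKO. *Iapp* made up 51.0% to 57.5% of the summed TPM of the 8 islet antigens. That sum was 66.5 and 107 in WT against 38.0 and 66.3 in *Sirt6* cKO, so WT 1 and cKO 2 were at nearly the same level. Among 157 genes of the lists used here, those nearest to *Ins2* in log2 CPM centred over the 4 libraries were the deacetylase gene *Sirt1* (Euclidean distance 0.304), the thyroid oxidase gene *Duox1* (0.321) and *Iapp* (0.404). All 4 genes were highest in WT 2.

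*Ptprn* encodes IA-2, a membrane protein of dense-core secretory granules and a major target of autoantibodies in type 1 diabetes (chr1:75247027-75264502, minus strand). It had 594 and 1154 counts in WT against 247 and 562 in *Sirt6* cKO. In CPM these were 9.08 and 18.1 against 4.09 and 8.76. WT 2 was the highest and cKO 1 the lowest, and cKO 2 lay just below WT 1. The log2 fold change was -1.08 (SE 0.56, edgeR adjusted p = 0.650), the largest shift toward lower levels among the members with over 100 counts in each library. Leaving out WT 1 gave -1.52 (adjusted p = 0.535) and leaving out cKO 2 gave -1.75 (adjusted p = 0.605), both past the unadjusted p of 0.05, where 3.44% and 4.26% of all genes were lower. Without WT 2 it was -0.50 and without cKO 1 -0.63. An antisense gene, *Gm28294*, shares 189 exon bases with *Ptprn* and is not a row of the count table, and whether the counting used strand is not given in the sources used here.

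Zinc storage and glucose handling in the beta cell are represented by *Slc30a8*, the granule zinc transporter ZnT8, and by *G6pc2*, the islet glucose-6-phosphatase subunit IGRP. *G6pc2* (chr2:69211073-69227841, plus strand) had 96 and 98 counts in WT against 37 and 74 in *Sirt6* cKO. Its WT libraries were almost equal at 1.47 and 1.54 CPM, and both *Sirt6* cKO libraries were lower at 0.613 and 1.15 CPM. The log2 fold change was -0.77 (SE 0.97, 95% interval -3.20 to 1.67, edgeR adjusted p = 0.882), and -1.31 without cKO 2 or -0.38 without cKO 1. *Slc30a8* (chr15:52295553-52335798, plus strand) had 38 and 0 counts in WT against 0 and 5 in *Sirt6* cKO. It was thus detected in 1 library of each group, and the 38 counts of WT 1 have exact Poisson limits of 26.9 to 52.2.

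*Gad1* and *Gad2* encode GAD67 and GAD65, the enzymes that make the transmitter GABA, and GAD65 is the form targeted in human type 1 diabetes. *Gad1* (chr2:70553072-70602014, plus strand) had 849 and 703 counts in WT against 418 and 1247 in *Sirt6* cKO. The *Sirt6* cKO libraries were the lowest and the highest of the 4, at 6.93 and 19.4 CPM, with WT at 13.0 and 11.1 CPM between them. They differed 2.81-fold, and replicates of that group were at least as far apart in 12.3% of the genes tested. The log2 fold change was 0.13 (SE 0.54, 95% interval -1.22 to 1.49, adjusted p = 0.967). Its sign turned with cKO 2 left out, at -0.81, and was 0.70 without cKO 1.

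*Gad2* (chr2:22622205-22693874, plus strand) was far lower, with 31 and 21 counts in WT against 8 in each *Sirt6* cKO library. These are 0.474 and 0.330 CPM against 0.133 and 0.125 CPM. The groups did not overlap, but the log2 fold change of -1.63 had an SE of 1.49 and an interval from -5.37 to 2.11 (edgeR adjusted p = 0.817). Per length, *Gad1* exceeded *Gad2* 48.4-fold and 60.6-fold in WT and 98.2-fold and 294-fold in *Sirt6* cKO.

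*Tg*, the thyroid prohormone from which thyroid hormone is released, was the member with the widest difference (chr15:66670753-66850721, plus strand). WT 1 held 401 counts of it and WT 2 only 8, whereas cKO 1 held 1421 and cKO 2 held 1896. In CPM these were 6.13, 0.126, 23.5 and 29.6. Both *Sirt6* cKO libraries were above both WT libraries, but the WT libraries differed 48.7-fold, and 1.42% of the genes tested had WT replicates at least as far apart. The log2 fold change was 3.08 (SE 1.46, 95% interval -0.58 to 6.75, edgeR adjusted p = 0.637). It was 7.68 without WT 1 (adjusted p = 0.182) and 2.12 without WT 2 (adjusted p = 0.620), both past the unadjusted p of 0.05, where 5.71% and 5.19% of all genes were higher. On log2(TPM + 1), limma called it at the unadjusted p (adjusted p = 0.358), in a fit that called 4.9% of genes higher. Among genes with a TPM above 0, *Tg* ranked at percentile 22.0 and 0.4 in WT against 40.5 and 46.0 in *Sirt6* cKO. An antisense gene outside the table, *Gm17140*, shares 112 exon bases with it.

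**Figure D2:**
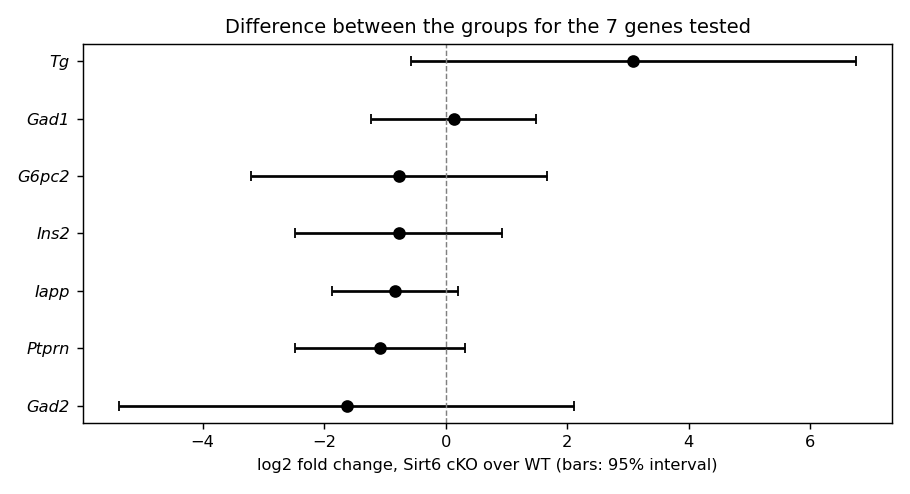
Log2 fold change of *Sirt6* cKO over WT (horizontal axis, edgeR) for the 7 genes tested, with 95% intervals as bars. All 7 intervals include 0, and those of *Gad2* (-5.37 to 2.11) and *Tg* (-0.58 to 6.75) are the widest.

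**Figure D3:**
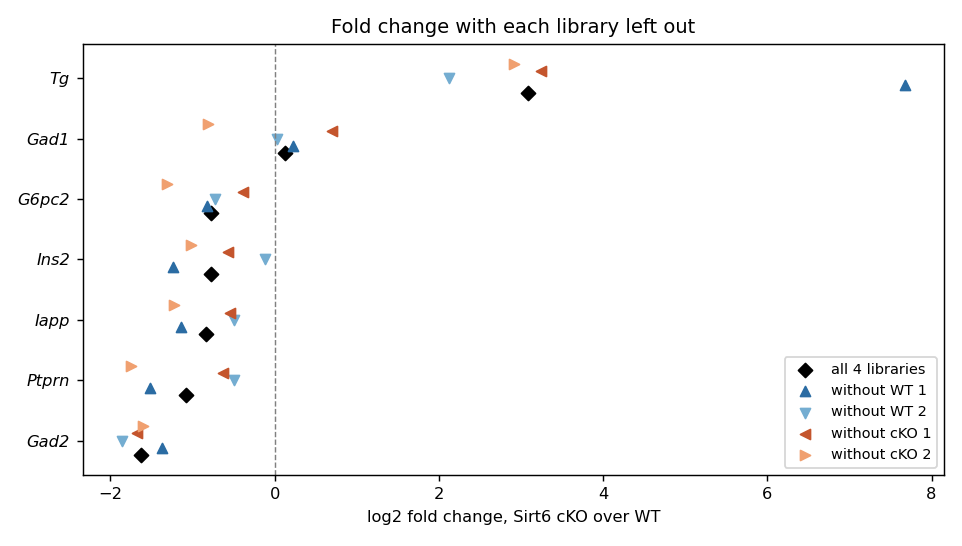
Log2 fold change of the same 7 genes with all 4 libraries (diamonds) and with each library left out in turn (triangles). *Tg* moves between 2.12 and 7.68 and stays above 0, *Gad1* lies on both sides of 0 (-0.81 to 0.70), and the other 5 stay below 0.

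The genes around the antigens did not share one direction. Next to *Ptprn*, 7696 bases away, lies *Resp18*, a granule protein gene related to *Ptprn*. It had 2292 and 3637 counts in WT against 1492 and 1491 in *Sirt6* cKO, and fell by 0.94 on the log2 scale at the unadjusted p (SE 0.32, adjusted p = 0.548). On the other side of *Ptprn*, *Dnajb2*, a cochaperone gene 1334 bases away, had a log2 fold change of 0.53 (SE 0.23, adjusted p = 0.610). *Abcb11*, the bile salt export pump gene 10440 bases from *G6pc2*, had 113 and 122 counts in WT against 3124 and 4685 in *Sirt6* cKO, and rose at the unadjusted p by 5.10 on the log2 scale (SE 0.34, adjusted p = 0.0862). *Slco1a5*, a transporter gene on the other strand that spans *Iapp* without sharing exon bases, rose at the unadjusted p, from 2522 and 2385 to 4463 and 5016 counts (mean CPM 38.0 against 76.1, adjusted p = 0.541). *Igf2*, the insulin-like growth factor gene 11839 bases from *Ins2*, had 168 and 133 counts in WT against 330 and 319 in *Sirt6* cKO (log2 fold change 1.16, SE 0.52, adjusted p = 0.617). *Sla*, within *Tg* on the other strand, was at -0.07 on the log2 scale.

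Among genes that beta cells use to process, store and release insulin, several granule genes were lower under the *Sirt6* cKO label. Of 17 in the list, all tested, 5 fell and 1 rose at the unadjusted p (3.32% and 5.27% of all genes), with a median log2 fold change of -0.83, and none passed the adjusted p. The 5 were *Scg2*, *Kcnj11*, *Resp18*, *Cpe* and *Pcsk1*, of which *Cpe* and *Pcsk1* are named after their values were seen. *Scg2*, a granin, had 1134 and 899 counts in WT against 172 and 363 in *Sirt6* cKO (log2 fold change -1.89, SE 0.46, adjusted p = 0.541). *Kcnj11*, the pore of the ATP-sensitive potassium channel, went from 408 and 433 counts to 58 and 142 (-2.04 on the log2 scale, SE 0.63, adjusted p = 0.541). *Pcsk1* and *Cpe* encode enzymes that cut and trim proinsulin, and they fell by 1.10 and 1.06 on the log2 scale (adjusted p = 0.563 and adjusted p = 0.562).

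*Syt7*, a calcium sensor of exocytosis, rose by 1.17 on the log2 scale (adjusted p = 0.550). *Scg5*, a chaperone of the convertase PC2, was at -0.40 (adjusted p = 0.703) and the granin gene *Chga* at 0.14 (adjusted p = 0.883). Without WT 2, or without cKO 1, fewer of the 17 were lower at the unadjusted p, and fewer of all genes were lower there too.

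Islet and gut hormones were also tested. None of 10 passed the unadjusted p, 8 had a log2 fold change below 0, and the median was -0.25. *Nts* (neurotensin) was the most abundant, at 296 TPM in WT against 240 in *Sirt6* cKO, with a log2 fold change of -0.29. *Pyy* (peptide YY) was at 79.7 and 47.4 TPM (-0.74 on the log2 scale, adjusted p = 0.662). Of 6 other islet antigens, *Tspan7*, a tetraspanin and diabetes autoantigen, fell at the unadjusted p, from 2661 and 2142 to 1097 and 1339 counts (log2 fold change -0.93, SE 0.27, adjusted p = 0.541), and the median of the list was -0.14.

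Islet transcription factors differed widely in level. Of 18 islet factors, 14 were tested and none fell at the unadjusted p, and the median log2 fold change was -0.33. *Mafa* was at 0 counts in 3 libraries and 3 in cKO 2, and *Pdx1* had 44 and 28 counts in WT against 5 and 52 in *Sirt6* cKO, both named after their values were seen.

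Among 9 genes of GABA transport, breakdown and interneuron identity, 6 were tested and 1 rose, the GABA transporter gene *Slc6a11*, from 24 and 5 to 116 and 136 counts (log2 fold change 3.17, SE 1.24, adjusted p = 0.576). The median of the list was 0.34, and *Slc32a1*, the vesicular GABA transporter, was at 0 in all 4 libraries. *Abat* and *Dlx5* were at 0.30 and 0.03 on the log2 scale.

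The other thyroid genes did not pass the test either. Of 16 thyroid genes, 15 were tested and none was called at the unadjusted p, with a median log2 fold change of -0.22. *Dio1*, a deiodinase that activates thyroid hormone, was the most abundant at 423 and 461 TPM (0.14 on the log2 scale, adjusted p = 0.876). *Slc26a4*, the iodide transporter pendrin, was at -0.29 (adjusted p = 0.872). *Nkx2-1*, a factor that drives *Tg* in the thyroid, had 64 and 0 counts in WT against 0 and 17 in *Sirt6* cKO, and is named after its values were seen.

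**Figure D4:**
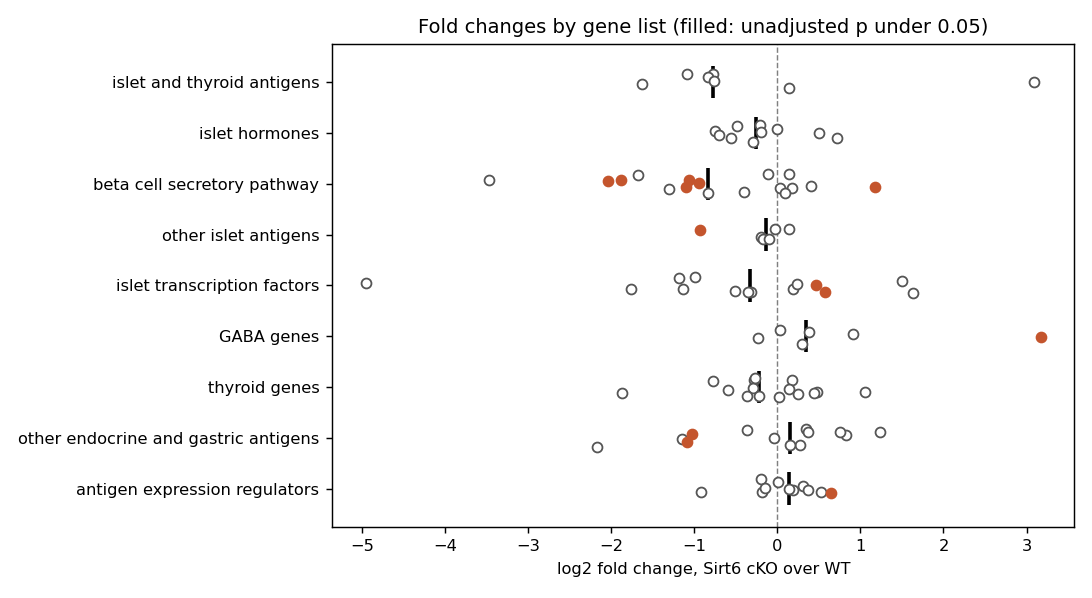
Log2 fold change of each tested gene (circles, horizontal axis) in 9 gene lists, filled where the unadjusted edgeR p is under 0.05, with a bar at the median of the list. The beta cell secretory pathway has 6 filled circles, 5 of them below 0, and the top row, which holds the 7 tested of the 9 antigens described here, has none.

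Regulators of antigen expression were mostly not called. Of 11, 1 rose and none fell at the unadjusted p, with a median log2 fold change of 0.14. *Aire* itself rose, from 23001 and 27268 to 33779 and 42559 counts (log2 fold change 0.65, SE 0.18, adjusted p = 0.541). *Fezf2*, which promotes another set of tissue antigens, was at -0.20 (adjusted p = 0.924).

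Markers of other cell types differed in both directions, and none passed the adjusted p. Of 7 macrophage and dendritic cell markers, 3 fell at the unadjusted p (*Lyz2*, *Cd68* and *Emr1*) and 6 were below 0, with a median log2 fold change of -0.67. Their summed TPM was 6082.5 to 9745.9 in WT and 3759.0 to 4054.2 in *Sirt6* cKO, most of it *Lyz2* (9532.2 in WT 1). Of 8 tuft cell markers, 3 fell (*Gnat3*, *Avil* and *Trpm5*) and 5 were below 0, with a sum of 211 to 261 against 158 to 177. The other 3 were above 0 without passing the test, among them the tuft factor *Pou2f3* at 0.24.

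*Ccl21a*, the chemokine of a distinct mTEC subset, fell by 2.37 on the log2 scale, whereas the other 4 markers of that list were above 0 without passing the test, with a list median of 0.32. The sum of this list, 1543.3 to 3654.3 TPM against 934.2 to 964.9, was mostly *Ccl21a* in WT (1257.9 in WT 1). Among 8 mature mTEC markers *Cd80* and *Aire* rose, and the list median was 0.33. Of 6 cTEC markers *Ly75* rose but 4 were below 0, with a median of -0.18. Of 5 epithelial markers *Epcam* rose, and *Krt8* and *Krt18* were at -0.33 and -0.40 without passing the test.

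None of 11 thymocyte, 5 B cell or 8 fibroblast and endothelial markers passed the unadjusted p. Thymocyte sums were 897 to 1210.3 TPM in WT and 609 to 997 in *Sirt6* cKO, and B cell sums 203 to 244 and 162 to 212. No marker was at 0 in all 4 libraries. The part of these populations in the antigen levels was not tested.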

How the data were processed

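RNA-seq of sorted mTECs gave 2 WT and 2 *Sirt6* cKO libraries. The authors used Trim Galore for trimming, HISAT2 2.1.0 for alignment (mm10) and StringTie 1.3.3 for quantification (versions from the submitters' processing notes). The annotation and strandedness are not given in the sources used here. The authors deposited unnormalized counts for 23337 genes, and a TPM value per gene and library. The last line of each deposited TPM table held the column total and was left out.

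Counts were tested with edgeR 4.0.16 in R 4.3.3 (TMM, quasi-likelihood test, no covariate, Benjamini-Hochberg adjustment) on 18547 genes that passed filterByExpr (minimum count 10, minimum total 15). SEs and 95% intervals are those of this fit, whose biological coefficient of variation was 0.557, and floors are 3 counts per library. Alternatives were DESeq2 1.42.0, limma 3.58.1 on log2(TPM + 1) and log2(TPM + 0.1), which understates the change of low genes, no filter, TPM over 0.1 in all libraries, upper quartile or library size scaling, the replicate number as a block, and leaving out each library, where the lone library of a group was assumed to vary like the other group. The procedure was also run on simulated counts, whose replicates were set to vary less than these libraries. That run therefore does not show how the procedure performs at the spread seen here.

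The members and lists were chosen with earlier results of these data known. Named are the members, their nearest listed neighbours, up to 4 genes past the unadjusted p and the 2 most abundant in each list, and the 3 list genes closest to *Ins2*. Not every gene so chosen is printed, and some results are not reported here. Implied lengths are counts over TPM, scaled by 1024 genes with 1 transcript. Positions are from GENCODE M21 (GRCm38, the assembly of mm10). Figures were drawn with matplotlib 3.10.9.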

Additional observations from a re-analysis of the deposited data

How the results depend on the processing

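No member passed the adjusted p of 0.05 under any alternative. At the unadjusted p, 1 member was lower instead of 0 with limma on log2(TPM + 1) and log2(TPM + 0.1) (*Iapp* in both, -0.83 and -0.85 on that log2 scale), and 1 was higher in both (*Tg*, 2.27 and 3.90). Of all genes, 4.71% and 4.55% were lower in these fits, in that order, and 4.9% and 4.77% were higher. The difference WT 1 minus WT 2 correlated with cKO 1 minus cKO 2 at -0.0544 over 18547 genes. This value cannot show whether the libraries were paired, since a pairing could touch few genes or follow other numbers. With the replicate block, 1 member was lower (*Ptprn*, -1.10, adjusted p = 0.777, with 2.42% of all genes lower), and 3 of the 17 secretory genes instead of 5, a count chosen after seeing the data. With each library left out, *Ptprn* moved between -1.75 and -0.50 on the log2 scale, and *Tg* between 2.12 and 7.68. The 91 other list genes tested held 13 calls, and 4 to 11 with a library left out, the lowest without cKO 1 (4) and without WT 2 (5). These calls were counted over the lists other than the cell markers, and 93 to 95 of their genes were tested with a library left out. Without cKO 1 a smaller share of all genes was called in either direction, and without WT 2 a smaller share was lower. *Gad1* changed sign, at -0.04 with the block, and -0.03 and -0.05 with limma on log2(TPM + 1) and log2(TPM + 0.1). The *Gad1* value was -0.81 without cKO 2, and up to 0.70 without cKO 1. The cause was not tested. *Gad2* and *Tg* did not pass the filter of TPM over 0.1, and *Gad2* was at -0.14 on log2(TPM + 1). Of the unadjusted calls over all genes, 61.4% were higher with TMM, 48.4% with upper quartile scaling and 46.2% with library size alone, while the median of all genes moved from -0.005 to -0.086 and -0.093. Leaving out a library moved *Ins2* between -1.24 and -0.12, *Iapp* between -1.23 and -0.49, and *G6pc2* between -1.31 and -0.38. At these depths a count of 0, as for *Ins1* in 3 libraries and *Slc30a8* in 2, allows up to 0.0458 to 0.0497 CPM by the floor of 3 counts.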

Other observations

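Antigens of other autoimmune endocrine and gastric diseases were measured in the same libraries. Of 13, 2 fell and none rose at the unadjusted p in edgeR, with a median log2 fold change of 0.15. *Atp4a*, the gastric proton pump subunit targeted in autoimmune gastritis, had 3988 and 3380 counts in WT against 1097 and 2283 in *Sirt6* cKO (log2 fold change -1.08, SE 0.38, adjusted p = 0.548). *Ddc*, the aromatic amino acid decarboxylase that is an antigen in autoimmune polyendocrine disease, had 3229 and 4367 against 1217 and 2405 (-1.03, SE 0.38, adjusted p = 0.560). *Hdc*, the histidine decarboxylase, was the most abundant of them at 877 TPM in WT against 852 in *Sirt6* cKO, with a log2 fold change of -0.03.

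Several tissue-restricted genes differed widely between the replicates of a group, as *Tg* did in WT. These were picked after their values were seen. *Slc2a2*, the glucose transporter GLUT2, had 0 and 265 counts in WT against 74 and 29 in *Sirt6* cKO. *Rfx6*, an islet transcription factor, had 63 and 656 against 0 and 23 (log2 fold change -4.95, SE 2.02, adjusted p = 0.595). *Gif*, the gastric intrinsic factor, had 414 and 430 against 20 and 357. *Nlrp5*, a parathyroid and oocyte antigen, had 259 and 80 against 42 and 746.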
